A study of Homo sapiens with 8 samples.

Results

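The genes described here are the zinc finger (ZNF) genes of chromosome 19 in HCT116 cells, a human colorectal cancer cell line. They were chosen by a rule on name and position, set with earlier results of these data known. Members are the genes on chromosome 19 whose symbol is ZNF followed by a number and that have at least 1 protein-coding transcript in the expression table. This gave 188 genes of 33711, with 963 of 134605 transcripts. ZNF genes on other chromosomes numbered 236 and other protein-coding genes of chromosome 19 numbered 990, and both served for comparison. Zinc finger genes with other kinds of symbol, such as ZFP, were not members. Of the 188 entries, 2 are read-through genes that join neighbouring loci, ZNF559-ZNF177 and ZNF816-ZNF321P.

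HCT116 cells were transfected with a control siRNA (NC) or with siRNA against YTHDF3, a cytoplasmic protein that binds N6-methyladenosine (m6A) in RNA and acts on the translation and decay of its targets. Input RNA, which is fragmented total RNA not enriched with the m6A antibody, was sequenced in 2 NC and 2 si-YTHDF3 libraries. Nothing in the labels states that these were separate cultures, and whether the 2 knockdown libraries received the same siRNA is not stated there. HCT116 is a single line, and the labels give no genotype beyond the siRNA.

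Most ZNF proteins of chromosome 19 carry an array of C2H2 zinc fingers, each finger contacting a few bases of DNA, and many carry a KRAB domain at the amino terminus. The KRAB domain binds TRIM28 (KAP1), which recruits the histone methyltransferase SETDB1, heterochromatin proteins and histone deacetylases. Transposable elements are the best known targets of these repressors. The genes lie in clusters that grew by tandem duplication, so that neighbours are often paralogues with similar sequence.

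Expression was given as FPKM, that is, fragments scaled by transcript length and by the fragments mapped in a library, and the transcripts of a gene were summed. Library totals lay between 371121 and 383303 FPKM, and read depth is unknown. YTHDF3 itself was at 25.9 and 11.96 FPKM in NC libraries 1 and 2 and at 2.53 and 3.25 in si-YTHDF3 libraries 1 and 2. Its log2 fold change was -2.27 (adjusted p = 0.135, limma). Of the 8 epithelial markers examined, 7 reached 1 FPKM, against 0 of the 3 leukocyte and 0 of the 2 endothelial markers listed. VIL1 (villin) was the epithelial exception. Of the 2 fibroblast markers listed, COL1A1 averaged 13.3 FPKM and COL3A1 was near 0, and the summed fibroblast level overlapped between NC and si-YTHDF3. Fewer cells of a type and less RNA per cell cannot be told apart in bulk RNA.

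Chromosome 19 ZNF genes were expressed at low levels. Their median was 2.34 FPKM (quartiles 0.802 and 3.77) over the 4 libraries, below the median of 4.44 for ZNF genes on other chromosomes, 8.43 for the other protein-coding genes of chromosome 19 and 6.94 for all genes with a protein-coding transcript. A mean of at least 1 FPKM was reached by 133 members (70.7%), close to the 74.6% of all protein-coding genes, whereas 5 FPKM was reached by 32 members (17.0%) against 56.5%. Thus it was the upper part of the distribution that was thinly filled. A further 21 members (11.2%) were under 0.1 FPKM, beside 12.6% of all protein-coding genes. Summed over the family, the libraries held 602 and 610 FPKM in NC and 672 and 655 in si-YTHDF3, a fold of 1.09. These sums made up 0.162% and 0.164% of all FPKM in the NC libraries and 0.179% and 0.171% in the si-YTHDF3 libraries. Protein-coding transcripts held between 82.5% and 85.5% of the members' FPKM, and transcripts with a retained intron between 6.98% and 8.54%.

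A single gene stood far above the rest. ZNF146 (OZF), a short protein made almost only of zinc fingers, was at 57.6 and 67.6 FPKM in NC and at 75.2 and 64.3 in si-YTHDF3, and took 10.4% of the family's summed FPKM. The 12 most abundant members took 35.3%. The next genes in order were ZNF787 (24.6, 18.6, 24.2 and 25.6 FPKM in NC 1, NC 2, si-YTHDF3 1 and si-YTHDF3 2), ZNF428 (21.2, 20.9, 19.9 and 21.4) and ZNF121 (17.6, 19.3, 21.95 and 20.5). The libraries of ZNF787, ZNF428 and ZNF121 overlapped from gene to gene, so their order is not firm. Of these abundant genes, ZNF580 varied most between libraries of the same group, at 10.3 and 19.7 FPKM in NC and 21.4 and 10.9 in si-YTHDF3. Ranks 6 to 12 were held by ZNF317, ZNF507, ZNF83, ZNF574, ZNF579, ZNF561 and ZNF558, between 8.73 and 12.7 FPKM. FPKM is per length, which allows this comparison between genes.

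Members sat in 19 groups along the chromosome when a new group was begun wherever neighbouring starts lay more than 1 Mb apart. The 8 groups with at least 9 genes held 162 members, and 102 members lay on the plus strand and 86 on the minus strand. Levels varied along the chromosome. The group of 23 genes from ZNF653 to ZNF791 (chr19:11483427-12640098, GRCh38) had a median of 0.806 FPKM, and only 11 of its 23 genes reached 1 FPKM. It held 7 of the 21 members under 0.1 FPKM (ZNF433, ZNF439, ZNF442, ZNF491, ZNF788, ZNF844 and ZNF878). At the other end, all 9 genes from ZNF628 to ZNF444 (chr19:55476332-56160893) reached 1 FPKM, with a median of 6.33. The 15 genes from ZNF557 to ZNF846 (chr19:7069444-9786089) had a median of 5.00 FPKM. The largest groups lay between them: 32 genes from ZNF175 to ZNF813 with a median of 2.63 and 38 genes from ZNF264 to ZNF446 with a median of 2.45. Within the group that holds ZNF146, the other genes were low and the median was 1.13 FPKM. These levels are descriptions, since neighbours are often paralogues and may share their surroundings. Groups were cut by distance only, and relatedness within a group was not examined.

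**Figure D1:**
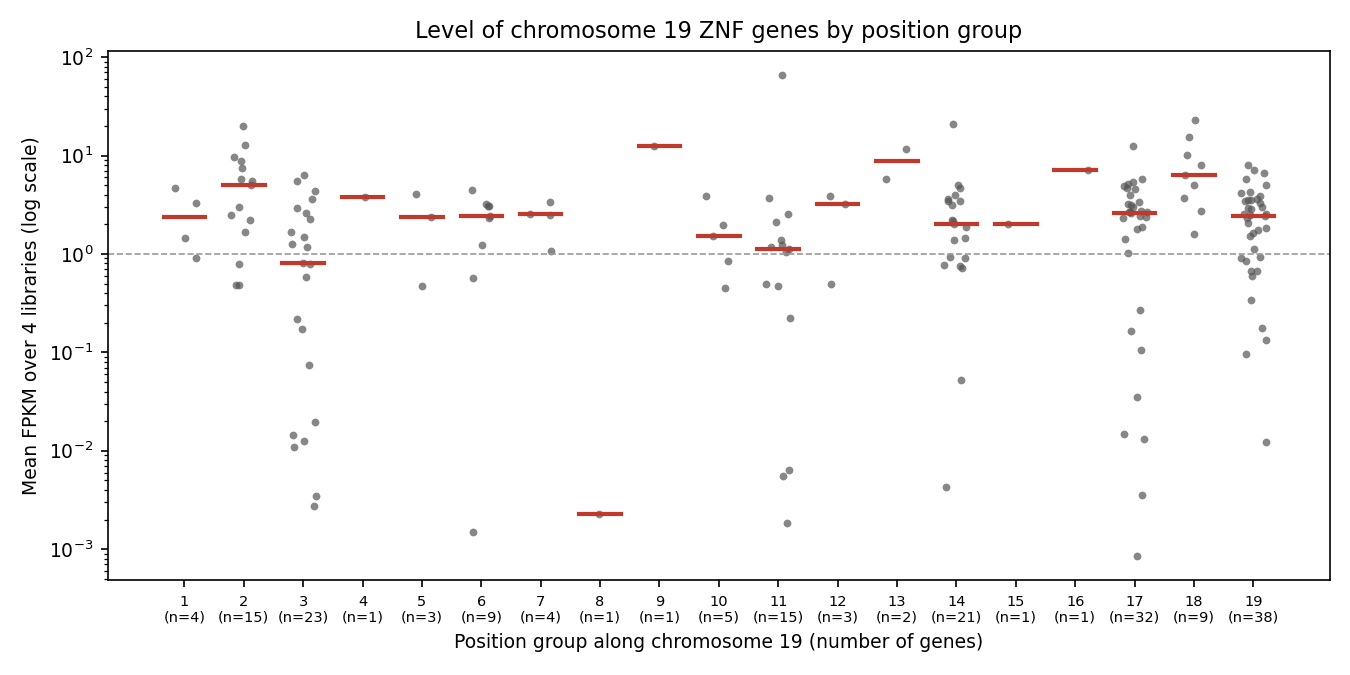
Mean FPKM over the 4 input libraries (log axis) of each of the 188 genes, by position group from the short-arm end to the long-arm end of chromosome 19. Points are genes, red bars are group medians and the dashed line marks 1 FPKM. The third group, with 23 genes, has its median of 0.806 FPKM below the line, and all 9 genes of group 18 lie above the line.

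Promoter sequence gave a feature that the choice of members had not used. RefSeq windows of 300 bases (250 before to 50 after the start, GRCh38.p14) were matched by symbol for 142 members with a single window. A further 21 members had several windows and 25 had none, and both were left out. The ETS core CCGGAAG, the site of factors such as GABPA, was found on either strand in 68 of 142 member promoters (47.9%). It was found in 37.0% of 146 promoters of ZNF genes on other chromosomes, in 15.4% of 583 promoters of other chromosome 19 protein-coding genes, in 18.3% of 8612 promoters of all protein-coding genes matched and in 10.3% of all 35116 windows. So the motif was common among ZNF promoters on and off chromosome 19 and not among the other genes of this chromosome. It was unevenly spread over the position groups. It was in 23 of 33 promoters from ZNF264 to ZNF446, 14 of 21 from ZNF175 to ZNF813 and 7 of 8 from ZNF85 to ZNF208. By contrast, it was in 2 of 19 from ZNF653 to ZNF791, 3 of 12 from ZNF557 to ZNF846 and 2 of 8 from ZNF565 to ZNF573. The matches lay close to the start: 54 of 77 (70.1%) had their centre within 25 bases of it, against 38.6% of 1871 matches in the other protein-coding promoters. The share did not follow the level of the gene, at 43.8% of 16 promoters under 0.1 FPKM, 44.4% of 27 between 0.1 and 1, 55.4% of 74 between 1 and 5, and 32.0% of 25 at 5 FPKM or more. Neighbours are often paralogues, so their promoters and matches are not independent. In ZNF347, ZNF611, ZNF616, ZNF765, ZNF766, ZNF808 and ZNF845, all of the same position group, the match lay 7 bases after the start. ZNF816 and its read-through entry ZNF816-ZNF321P each had a match 9 bases after the start, so the same site may be counted in both. How far this raised the shares was not examined.

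The windows printed here run from 100 bases before to 50 after the start and are shown for 3 genes whose level differed between the groups at an unadjusted p under 0.05, for ZNF528, which was near 0 FPKM, and for ZNF146, the most abundant member, whose window holds no match. Capitals mark CCGGAAG or its reverse complement CTTCCGG.
ZNF264 (chr19:57191400-57191549, + strand): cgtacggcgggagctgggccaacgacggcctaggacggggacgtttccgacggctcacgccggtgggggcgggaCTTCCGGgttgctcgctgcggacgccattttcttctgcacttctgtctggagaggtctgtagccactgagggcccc
ZNF324 (chr19:58466980-58467129, + strand): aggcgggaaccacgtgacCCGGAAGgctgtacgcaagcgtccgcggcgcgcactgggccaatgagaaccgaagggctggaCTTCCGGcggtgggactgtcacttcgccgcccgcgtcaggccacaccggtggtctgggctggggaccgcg
ZNF616 (chr19:52139889-52140038, - strand): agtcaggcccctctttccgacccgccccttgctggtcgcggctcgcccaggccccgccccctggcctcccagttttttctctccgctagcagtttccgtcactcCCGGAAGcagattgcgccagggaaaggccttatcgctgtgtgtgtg
ZNF528 (chr19:52397749-52397898, + strand): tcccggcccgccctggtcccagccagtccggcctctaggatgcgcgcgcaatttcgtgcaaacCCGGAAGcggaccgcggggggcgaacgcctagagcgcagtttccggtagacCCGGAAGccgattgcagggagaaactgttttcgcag
ZNF146 (chr19:36215006-36215155, + strand): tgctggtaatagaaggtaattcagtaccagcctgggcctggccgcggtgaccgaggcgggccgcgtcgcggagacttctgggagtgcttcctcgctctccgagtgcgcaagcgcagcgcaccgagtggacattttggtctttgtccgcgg
The match in ZNF616 lay 7 bases after the start, and ZNF324 and ZNF528 had 2 matches each. ZNF528 was listed at 0 FPKM in 3 libraries and at 0.00342 in si-YTHDF3 library 2, so a promoter with these matches was found at a gene near 0.

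**Figure D2:**
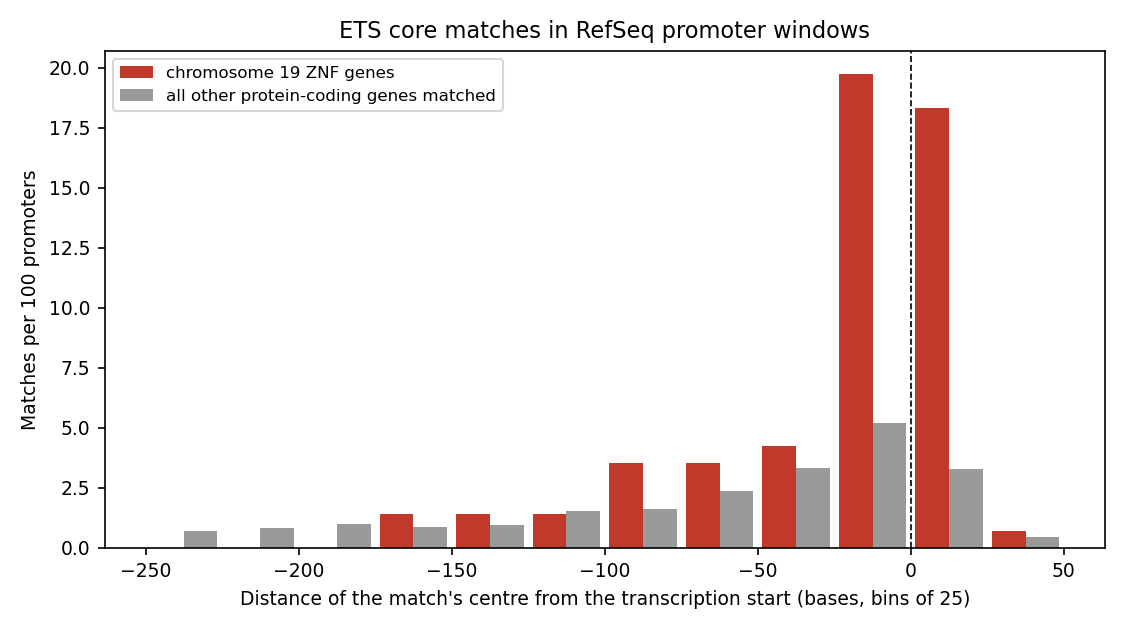
Matches to the ETS core per 100 promoters (vertical axis) by distance of the match's centre from the transcription start in bins of 25 bases (horizontal axis), for 142 chromosome 19 ZNF promoters (red) and for the other 8470 protein-coding promoters matched (grey). The red bars reach 19.7 and 18.3 per 100 promoters in the bins on either side of the start, where the grey bars are at 5.22 and 3.28.

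Of the other motifs searched, the CCAAT box, bound by NF-Y, was in 58.5% of member promoters, in 47.3% of promoters of ZNF genes on other chromosomes and in 37.1% of all protein-coding promoters matched. By level, it was in 62.5% of 16 member promoters under 0.1 FPKM, 63.0% of 27 between 0.1 and 1, 64.9% of 74 between 1 and 5 and 32.0% of 25 at 5 FPKM or more. The letters TATAAA were in 2.11% of member promoters against 7.0% of all protein-coding promoters matched. The box GGGGCGGGG (SP and KLF factors) was in 26.8% against 27.5%, the YY1 core ATGGCGGC in 6.34% against 6.0%, the NRF1 site in 9.15% against 10.9%, TGACGTCA in 4.93% against 3.16% and CACGTG in 4.93% against 9.84%. Both strands were searched for each. CpG pairs numbered a median of 21 per window against 25, and 16.5 in members under 0.1 FPKM against 23 in members at 5 FPKM or more.

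A longer shared word was sought in the promoters of the group from ZNF653 to ZNF791. That group was taken because its median level was the lowest among groups with at least 9 genes. Among words of 11 letters, CCAATCAGGGG, which contains the CCAAT box, was shared by the most promoters of that group, together with the overlapping TCCAATCAGGG. It was chosen from these promoters for that reason, so its frequency in that group is no separate result. Words of the other groups were not searched in this way. The box occurred in 12 of 142 member promoters (8.45%). It was in 11 of the 19 promoters matched from that group and in ZNF77 of the first group. It was in 0 of 583 promoters of other chromosome 19 protein-coding genes and in 18 of 8612 (0.209%) of all protein-coding genes matched, which include the 12. It was in 3 of 146 (2.05%) promoters of ZNF genes on other chromosomes and in 0.117% of all windows. The box is set in capitals in ZNF440 and ZNF791, which were expressed, and in ZNF433, which was near 0.
ZNF440 (chr19:11814173-11814322, + strand): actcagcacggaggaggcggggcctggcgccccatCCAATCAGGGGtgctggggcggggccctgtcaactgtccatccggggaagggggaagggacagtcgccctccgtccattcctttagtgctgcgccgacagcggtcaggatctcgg
ZNF791 (chr19:12610820-12610969, + strand): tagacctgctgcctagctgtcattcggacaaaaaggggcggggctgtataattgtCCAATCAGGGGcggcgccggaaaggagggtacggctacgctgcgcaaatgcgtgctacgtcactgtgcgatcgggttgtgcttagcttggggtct
ZNF433 (chr19:12035630-12035779, - strand): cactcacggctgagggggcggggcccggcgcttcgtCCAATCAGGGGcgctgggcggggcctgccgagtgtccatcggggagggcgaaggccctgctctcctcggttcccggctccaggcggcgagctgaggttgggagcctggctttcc
The 11 genes with this box in the group ran from 0.00344 FPKM (ZNF491) to 4.32 FPKM (ZNF440). The box was thus present at near-silent and at expressed neighbours alike.

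The knockdown comparison was fitted over all 14457 genes with a mean of at least 1 FPKM, with limma on log2(FPKM + 1), and the members were read from that fit. It asks whether the level of these genes differed between si-YTHDF3 and NC cells. The filter on level kept 133 members. Just below it lay ZNF575 (0.911 FPKM), ZNF230 (0.937) and ZNF547 (0.938), and just above it ZNF613 (1.02), ZNF566 (1.06) and ZNF254 (1.08). No member was past an adjusted p of 0.05 in limma, where 4 of all genes tested (0.0277%) were. The lowest adjusted p among members was 0.132, for ZNF559. Without adjustment, 12 members (9.02%) with a higher and 7 (5.26%) with a lower mean in si-YTHDF3 had a p under 0.05. The background over all genes was 8.29% higher and 6.53% lower, so the members' counts were near it. Without si-YTHDF3 library 1 the counts were 8 and 3, together 8.40% of members against 12.7% of all genes, and without si-YTHDF3 library 2 the shares were 14.2% and 8.0%. Both libraries of si-YTHDF3 lay above both of NC in 45 members (33.8%) and below both in 27 (20.3%), beside 25.3% and 23.7% of all genes.

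The family's median change lay slightly above that of all genes, by less than the spread of its members. Of the 133 members tested, 81 (60.9%) had a higher and 52 a lower mean in si-YTHDF3, beside 52.0% higher of all genes. Their median log2 fold change was 0.08 (quartiles -0.116 and 0.222), against 0.01 (quartiles -0.173 and 0.204) over all genes. ZNF genes on other chromosomes had a median of 0.11, with 131 of 210 higher. The other protein-coding genes of chromosome 19 were at 0.16, with 569 of 726 higher. The members' median thus lay below that of their neighbours on the chromosome and near that of ZNF genes elsewhere. These differences between lists were not tested. Gene by gene, the spread between libraries was of the same order as the differences between groups: the median absolute log2 difference over the members was 0.19 between the NC libraries, 0.17 between the si-YTHDF3 libraries and from 0.21 to 0.26 between a library of each group. The median over the members in each library, with each gene centred on its mean, varied less. It was -0.0207 and -0.0220 in NC and 0.0469 and 0.0401 in si-YTHDF3, and this difference was not tested.

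**Figure D3:**
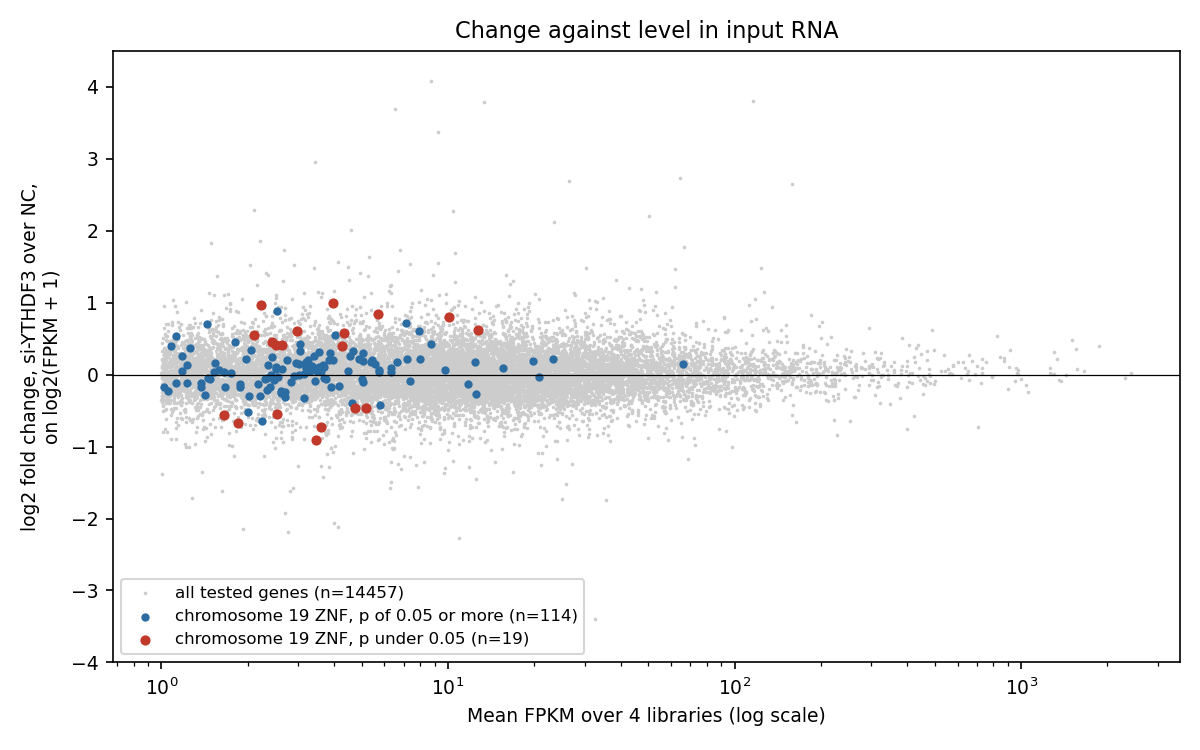
Log2 fold change of si-YTHDF3 over NC on log2(FPKM + 1) (vertical axis) against mean FPKM over the 4 libraries (log axis). Grey points are all 14457 genes tested, blue points are 114 members at an unadjusted p of 0.05 or more and red points the 19 members under 0.05. Members lie between -0.91 and 1.00, within the cloud of all genes.

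The members with the largest differences upward were ZNF227 and ZNF559. ZNF227 (chr19:44207547-44237268) was at 2.07 and 2.54 FPKM in NC and at 4.98 and 6.28 in si-YTHDF3. Its log2 fold change was 1.00 ± 0.17 (SE; adjusted p = 0.156, limma). Groups that do not overlap were a condition for naming it. Its protein-coding transcript ENST00000621083 went from 0.476 and 0.151 FPKM to 1.49 and 2.20. ZNF559 (chr19:9323772-9351162) was at 1.25 and 1.11 FPKM in NC and at 3.23 and 3.32 in si-YTHDF3, a log2 fold change of 0.97 ± 0.15 (adjusted p = 0.132, limma). Libraries of a group agreed closely on ZNF559 as a gene but not on its transcripts. ENST00000587557 held 2.30 FPKM in si-YTHDF3 library 1 and 0.160 in library 2, while ENST00000605750 held 0 and 1.82.

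ZNF559 overlaps the read-through entry ZNF559-ZNF177 (chr19:9324174-9382617), whose difference ran the opposite way. The read-through entry was at 1.96 and 2.38 FPKM in NC and at 1.33 and 0.960 in si-YTHDF3, with a log2 fold change of -0.57 (adjusted p = 0.269, limma). Summed, the pair stood at 3.21 and 3.48 FPKM in NC and 4.55 and 4.28 in si-YTHDF3, a fold of 1.32. That is smaller than the fold of 2.77 for ZNF559 alone. How reads were divided between overlapping entries is not given in the sources used here, so the values of each entry alone are uncertain.

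Among the other members that were higher at an unadjusted p under 0.05, ZNF160, known as a repressor of TLR4 in intestinal epithelial cells, was at 3.81 and 3.74 FPKM in NC and 9.07 and 6.22 in si-YTHDF3 (log2 fold change 0.84, adjusted p = 0.218, limma). ZNF579 was at 8.76 and 5.59 against 12.1 and 13.9, and ZNF317 at 8.52 and 11.2 against 17.1 and 14.1. These were also among the 12 most abundant members. ZNF675 (TIZ), an inhibitor of TRAF6 signalling, was at 1.94 and 2.05 FPKM against 2.89 and 3.13, a log2 fold change of 0.42. The remaining members of this set were ZNF616 (0.61), ZNF440 (0.58), ZNF585B (0.55), ZNF765 (0.45), ZNF888 (0.41) and ZNF587B (0.40), given as log2 fold changes. Without NC library 1 ZNF616 was at 0.37, and without NC library 2 ZNF579 was at 0.52. Of the 12, 4 lay in the group from ZNF175 to ZNF813 (ZNF160, ZNF616, ZNF765 and ZNF888), where 24 genes were tested. Over all genes 8.29% were higher at this p, and the group's count was not tested against that share.

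The lower members were led by ZNF548, at 4.98 and 4.46 FPKM in NC and 1.23 and 3.14 in si-YTHDF3 (log2 fold change -0.91 ± 0.30, adjusted p = 0.289, limma). Its knockdown libraries were far apart, and without si-YTHDF3 library 1 the log2 fold change was -0.46. ZNF791 (chr19:12610918-12633840) was at 4.18 and 5.32 FPKM in NC and 2.68 and 2.26 in si-YTHDF3 (-0.73, adjusted p = 0.218, limma). ZNF324 (chr19:58467045-58475436) was at 2.25 and 2.77 against 1.30 and 1.09 (-0.67, adjusted p = 0.220, limma). ZNF264 (chr19:57191500-57222846) was at 3.22 and 3.15 against 1.48 and 2.28, with a log2 fold change of -0.55. Groups that do not overlap were a condition for this list, so their separation is no further result. ZNF226 (-0.47) and ZNF577 (-0.46) completed the list with the read-through entry named above. Without si-YTHDF3 library 1 the log2 fold change was -0.35 for ZNF264 and -0.29 for ZNF226. ZNF548, ZNF264 and ZNF324 all lie in the last group of the chromosome, where 18 of 27 genes tested had a higher mean. Over all genes 6.53% were lower at an unadjusted p under 0.05, and the group's count was not tested against that share.

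**Figure D4:**
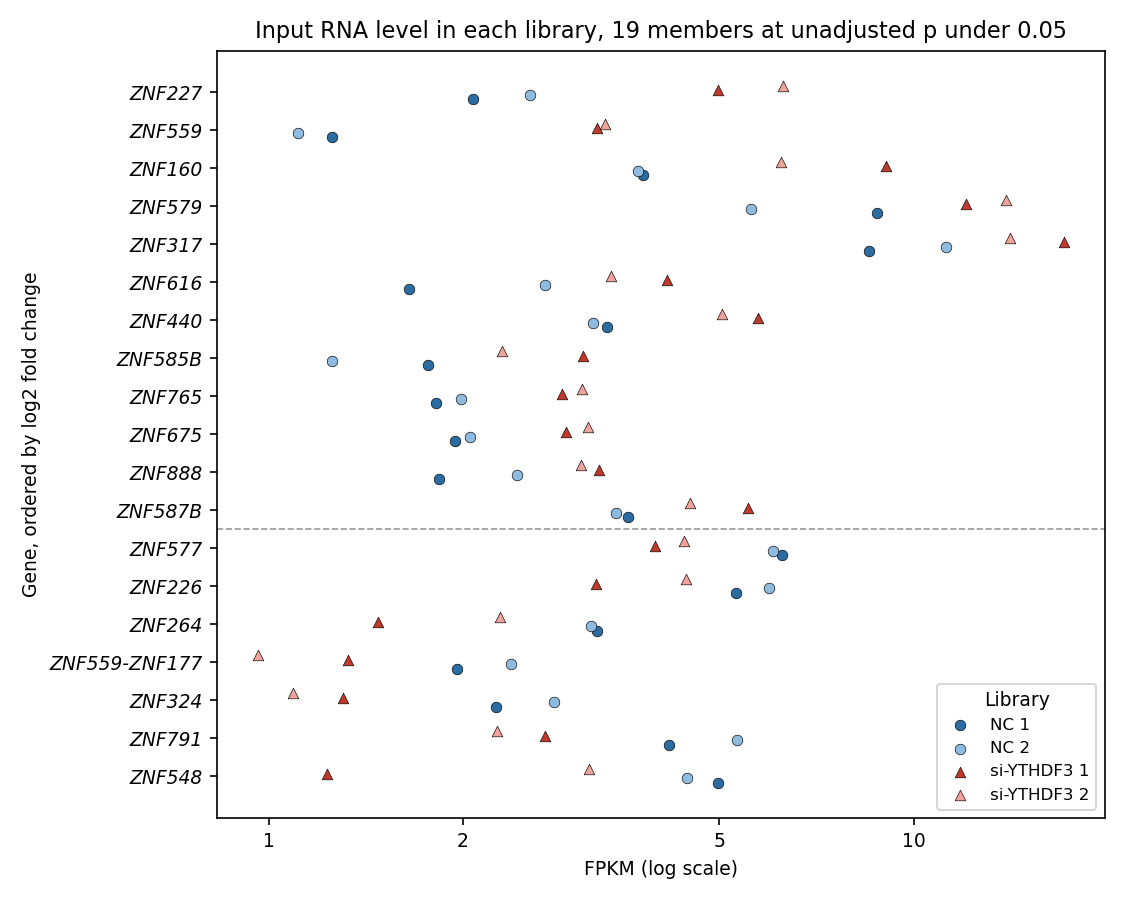
FPKM (log axis) in each of the 4 input libraries for the 19 members at an unadjusted p under 0.05, ordered by log2 fold change. Circles are NC and triangles si-YTHDF3 libraries, and the dashed line separates the 12 higher from the 7 lower genes. ZNF227 and ZNF559 show the widest upward gap between the groups, and ZNF548 shows its knockdown libraries at 1.23 and 3.14 FPKM.

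In the position groups with at least 9 genes, medians of the log2 fold change lay between -0.10 and 0.20. All 9 genes of the group from ZNF628 to ZNF444 had a higher mean in si-YTHDF3, with the median of 0.20 and sums of 72.1 and 64.3 FPKM in NC against 84.3 and 84.3. Only ZNF579 among them was under an unadjusted p of 0.05, and the libraries of ZNF444, ZNF524, ZNF580, ZNF628, ZNF787 and ZNF865 overlapped between the groups. A higher mean was also held by 78.4% of the other protein-coding genes of chromosome 19. The group from ZNF575 to ZNF296 had 5 higher and 9 lower genes and a median of -0.10. Its extremes were the neighbours ZNF227 and ZNF226, in opposite directions. In the low group from ZNF653 to ZNF791, 5 genes were higher and 6 lower.

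Some members have a known role, and 11 of the 16 looked for were in the table. ZNF274, which brings SETDB1 to the 3′ ends of ZNF genes, was at 4.34 and 4.98 FPKM in NC and at 5.20 and 5.65 in si-YTHDF3, a log2 fold change of 0.18 (adjusted p = 0.570, limma). ZNF91, a repressor of SVA retrotransposons, was at 2.68 and 3.34 against 4.06 and 3.51 (0.26, adjusted p = 0.489, limma). In both, the libraries of the groups did not overlap, but neither passed the test. ZNF473 (ZFP100), a component of the U7 snRNP in histone pre-mRNA processing, was at 6.29 and 6.82 against 7.73 and 7.82 (0.22, adjusted p = 0.474, limma). ZNF558, a regulator of the mitophagy gene SPATA18, was at 6.08 and 8.63 against 10.8 and 9.46 (0.43, adjusted p = 0.365, limma). Without NC library 1 the log2 fold change was 0.20 for ZNF558, 0.14 for ZNF91 and 0.10 for ZNF274, and for ZNF558 it was 0.65 without NC library 2.

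ZNF304, implicated in silencing of the INK4-ARF locus in colorectal cancer cells, was at 0.503 and 2.81 FPKM in NC and at 3.52 and 3.32 in si-YTHDF3. The gap rested on NC library 1. The log2 fold change was 0.89 ± 0.43 (adjusted p = 0.392, limma), 0.21 without NC library 1 and 1.56 without NC library 2. ZNF350 (ZBRK1), a partner of BRCA1, was at 1.87 and 2.16 against 1.67 and 1.83, with a log2 fold change of -0.13 that was -0.20 without NC library 1 and -0.061 without NC library 2. ZNF224, a repressor of the aldolase A gene, was at 2.53 and 4.40 against 3.69 and 3.33, with overlapping groups. ZNF154 and ZNF671, genes often methylated and silent in tumours, were at 0.0833 to 0.116 and 0.0720 to 0.184 FPKM over the 4 libraries. ZNF536, a gene of the nervous system, was listed at 0 in 3 libraries and at 0.00914 in si-YTHDF3 library 1.

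The division of a gene among its transcripts also differed between libraries. In 125 tested members with more than 1 transcript, the transcript with the highest FPKM was the same in all 4 libraries in 54 (43.2%), against 53.7% of all such genes. The leading transcript differed between the NC libraries in 38 members and between the si-YTHDF3 libraries in 40, so libraries of a group often disagreed. In 8 members (6.4%) it agreed within each group and changed between them, beside 3.5% of all genes and 8.72% of ZNF genes on other chromosomes. These were ZNF235, ZNF324, ZNF460, ZNF544, ZNF554, ZNF576, ZNF738 and ZNF845.

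ZNF845 showed the clearest exchange. ENST00000595091 was at 1.19 and 1.51 FPKM in NC and at 0 and 0.00856 in si-YTHDF3, while ENST00000458035 had 0 FPKM in each NC library and 2.62 and 1.73 in si-YTHDF3. Both are protein-coding, with lengths of 4413 and 4311 bases. In ZNF473, ENST00000391821 was at 5.70 and 5.93 FPKM in NC and at 1.59 and 1.73 in si-YTHDF3. ENST00000270617 of the same gene had 0 FPKM in each NC library and 2.56 and 4.6 in the si-YTHDF3 libraries. Both have 5 exons and the same end, with lengths of 4715 and 4688 bases, so how reads were divided between them is uncertain. A further transcript, ENST00000445728, was at 0 and 0.214 FPKM in NC and at 3.26 and 0.241 in si-YTHDF3. The summed level of ZNF473 had a log2 fold change of 0.22. ENST00000458035, ENST00000270617 and ENST00000423137 (of ZNF587) were at 0 in both NC libraries and at least 1 FPKM in both si-YTHDF3 libraries. They were the 3 such member transcripts of 800, beside 0.142% of 108028 transcripts of all tested genes. The reverse held for 0 member transcripts, beside 0.0713% of all.

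In 3 of the lower members, picked after their values were seen, the transcript that led in NC was far lower after knockdown. In ZNF264, ENST00000263095, which is 12163 bases long, was at 2.49 and 2.62 FPKM in NC and at 0.119 and 0.247 in si-YTHDF3. The short ENST00000600531 (774 bases) was at 0.365 and 0.329 against 0.479 and 1.39. In ZNF791, ENST00000343325 was at 3.16 and 4.77 FPKM against 0.451 and 0.498, and in ZNF324, ENST00000196482 was at 1.98 and 2.60 against 0.0954 and 0.310. In each of these 3 the leading transcript of the NC libraries was lower in both knockdown libraries by more than the gene's sum. The leading NC transcript was also lower in ZNF226 (ENST00000337433, 3.57 and 3.99 against 0.565 and 2.01) and ZNF548 (ENST00000336128, 2.42 and 2.33 against 0.0525 and 1.39). That of ZNF577 overlapped (ENST00000638325, 3.50 and 2.15 against 1.71 and 2.20). Choosing a transcript as the highest in NC favours a lower value in the other group. With transcripts weighted by length, ZNF264 had a log2 fold change of -2.33 (adjusted p = 0.0484, limma) and was the only member called in that setting. An FPKM file does not keep the reads that distinguish isoforms, and no test of the transcripts was made.

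**Figure D5:**
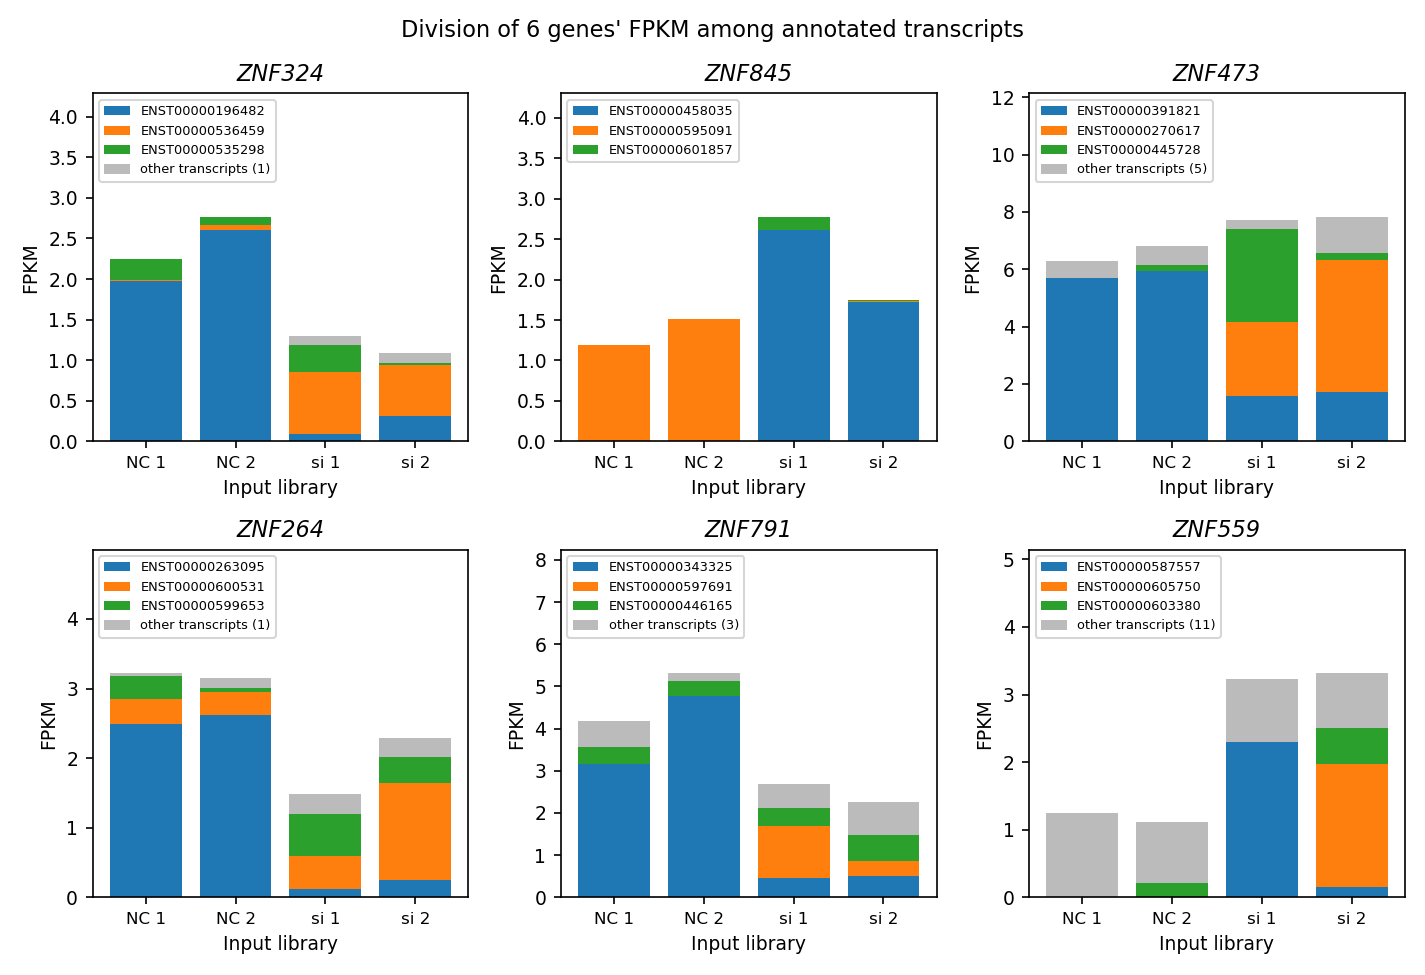
FPKM (vertical axis, from 0) of annotated transcripts stacked per input library (NC 1, NC 2, si-YTHDF3 1 and si-YTHDF3 2) for 6 members, with the 3 transcripts of highest FPKM in colour and the rest in grey. In ZNF845 and ZNF324 the leading transcript is exchanged between the groups, and in ZNF264 and ZNF791 the blue transcript shrinks in the knockdown libraries.

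The partners through which KRAB zinc finger proteins act were all expressed, with mean levels of 10.2 FPKM or more. Of 24 corepressor genes, all tested, 12 had a higher and 12 a lower mean, with a median log2 fold change of -0.02. TRIM28 was at 454 and 354 FPKM in NC and at 351 and 475 in si-YTHDF3, with overlapping groups. SETDB1 was at 32.2 and 32.7 against 35.5 and 35.9, a log2 fold change of 0.13 (adjusted p = 0.615, limma). In the same fit 2 passed an unadjusted p of 0.05 with a higher and 0 with a lower mean, against 8.29% and 6.53% of all genes. These were MTA1, a subunit of the NuRD deacetylase complex, at 89.8 and 75.4 against 121 and 134 FPKM (0.62, adjusted p = 0.208, limma), and the deacetylase HDAC1, at 88.2 and 98.0 against 130 and 145 (0.56, adjusted p = 0.215, limma). For both, all knockdown values lay above all control values. The paralogue HDAC2 was at 30.0 and 33.0 against 30.6 and 55.8 FPKM, where a single knockdown library was high. UHRF1, which guides maintenance DNA methylation, was at 76.1 and 68.4 against 48.2 and 64.3 (-0.37, adjusted p = 0.383, limma), or -0.17 without si-YTHDF3 library 1 and -0.57 without library 2.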

How the data were processed

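The values the authors deposited are FPKM of Ensembl transcripts, 1 column for each of the 4 input libraries, scaled to length and mapped fragments. The submitters' processing notes name build GRCh38, while aligner, quantifier and use of strand were not given in the sources used here. This deposited table also holds the authors' fold changes and p-values, and these were not used. The list of m6A peaks analysed with it covers chromosome 1 only, so m6A at the members is not analysed here.

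FPKM were summed per gene. For genes with a mean of at least 1 FPKM, log2(FPKM + 1) was fitted in R 4.3.3 by limma 3.58.1 (lmFit, then eBayes with a mean trend, two-sided), with Benjamini-Hochberg adjustment at 0.05 over all genes. FPKM are not counts, and fold changes on this scale understate the change of low genes. With 2 libraries a group, p-values rest on differences between libraries of a group, in the gene itself and, through eBayes, over all genes tested. These differences can be technical. Of the 188 members, 53 overlap another gene of at least 1 FPKM, and paralogues may share reads, so their single values are uncertain.

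Genes named are the 12 most abundant members, up to 12 per direction by fold change at an unadjusted p under 0.05 with groups that do not overlap, members of known role, and corepressors. Members and lists were chosen with earlier results of these data known. Transcripts, neighbours and promoters were named after their values were seen. Protein features were not examined. Alternatives were the pseudocount, the filter, normalization, length weighting, coding transcripts only, a replicate block and leaving out each library. Figures were drawn with matplotlib 3.10.9.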

Additional observations from a re-analysis of the deposited data

How the results depend on the processing

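Of 526 values of 42 named genes under the alternatives, 507 kept their direction and their side of the threshold, 7 passed it newly and 12 changed sign. With a pseudocount of 0.1 the members' median log2 fold change was 0.10. It was 0.029 with no filter on low values, 0.16 at a mean of at least 5 FPKM, 0.045 after quantile normalization, 0.060 with length-weighted sums and 0.088 over protein-coding transcripts only. It ranged from 0.040 to 0.087 when libraries were left out. It stayed above 0 in every setting run. At a mean of at least 5 FPKM, 24 members were higher and 8 lower, with 3 and 1 at an unadjusted p under 0.05 (12.5% of members, 16.1% of all genes). With no filter, 4 were lower at that p (6.38% of members and 9.56% of all genes in either direction). The median log2 fold change over all genes was 0.0026 at a mean of at least 5 FPKM and from 0.0045 to 0.017 with a library left out. The members' summed fold was 1.12 over protein-coding transcripts only.

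At an adjusted p under 0.05, limma called 1 member of 30 genes with length-weighted sums (ZNF264). Without NC replicate 2 it called 2 members of 54 genes (ZNF304 and ZNF627), whose NC libraries lay far apart (ZNF627 at 5.72 and 0.796 FPKM). The lone NC library was then assumed to vary like the si-YTHDF3 group. Over all libraries left out, between 0 and 2 members were called. Corepressor genes lower at an unadjusted p under 0.05 numbered 1 with length-weighted sums. In that setting 17.7% of all genes were under this p in either direction.

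Numbers shared by NC and si-YTHDF3 libraries mark no common batch in the labels, and the NC and si-YTHDF3 differences between replicates correlated at -0.11 over 14457 genes. With the replicate block, 2 members were past an adjusted p of 0.05 in limma (ZNF227, adjusted p = 0.0336, and ZNF559, adjusted p = 0.0404) and 132 of all genes were. With the crossed pairing, added after seeing the data, 0 members were called, 20 members (15.0%, against 19.1% of all genes) had an unadjusted p under 0.05 and 3 corepressor genes were lower.

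The sign changed for TRIM28 after quantile normalization (-0.0044) and over protein-coding transcripts (-0.052), and it ranged from -0.19 to 0.24 with a library left out (-0.15 without NC replicate 2). With length-weighted sums ZNF224 was at -0.33 and HDAC2 at -0.15. With a library left out ZNF224 ranged from -0.26 (without NC replicate 1; -0.010 without si-YTHDF3 replicate 1) to 0.35, HDAC2 from -0.040 to 0.81, ZNF580 from -0.36 (without si-YTHDF3 replicate 1; -0.34 without NC replicate 1) to 0.55 and ZNF428 from -0.083 to 0.021. All are log2 fold changes and the cause was not tested. Depth is unknown, which leaves low members without a counting error.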
